A study of Mus musculus with 7 samples.

Results

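The genes described are those for the proteins of the cytosolic ribosome, together with Rpl3l, the striated muscle paralog of Rpl3. Members were chosen by gene symbol alone: names beginning with Rpl or Rps and a digit, and Rplp0, Rplp1, Rplp2 and Rpsa. The S6 kinase genes and symbols containing -ps, which marks pseudogenes, were left out. This gave 88 of the 24421 gene rows of the table. Of these, 46 are standard proteins of the large subunit and 31 of the small subunit. The other 11 are paralogs or genes with a like name, among them Rps19bp1, which encodes a protein that binds a ribosomal protein and is not a subunit. Rpl37rt and Rps4l, also among these, are annotated as transcribed processed pseudogenes but do not carry -ps in their symbols. RNA came from left atria of adult mice of the outbred CD1 strain. The genotype labels give FOG2 overexpression for 4 libraries and wild type for 3, and all animals had spent 1 week off doxycycline. The labels also call the animals DTG and NTG without spelling these out, and no source used here gives the promoter or cell type that drives FOG2. Nor is it stated that the libraries came from separate animals. The p-values therefore reflect the spread between libraries, part of which may be technical.

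The ribosome is built from a small subunit, which reads the mRNA, and a large subunit, which joins amino acids and passes the new protein out through a tunnel. Each subunit is ribosomal RNA with a set of small basic proteins, most of them present once per ribosome. The mRNAs of these proteins begin with a run of pyrimidines, the 5′ terminal oligopyrimidine motif, through which growth signals control their translation. In mature heart and skeletal muscle Rpl3l takes the place of Rpl3, a protein close to the catalytic centre of the large subunit. Genes of ribosomal proteins have left many processed pseudogenes in mammalian genomes, so short reads from their mRNAs often match more than 1 place.

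Gene counts totalled 5562520 to 8655655 per library. A single count was worth 0.111 to 0.174 CPM, the count scaled to the gene total of its library, here after adjustment by the trimmed mean of M values (TMM). Zfpm2, which encodes FOG2, stood at 31.7, 30.9 and 29.4 CPM in the wild type libraries and at 140.1, 222, 262 and 246 CPM in those labelled overexpression. It matched the labels in every library. Overexpression replicate 1 stood apart, with a median correlation to its group of 0.949, where the other libraries had 0.978 to 0.983. Atrial cardiomyocyte markers were present at a summed 90619.7 to 103595 CPM in wild type and at 55103 to 74593 CPM in overexpression. Of the 11 tested, 4 fell and 0 rose (edgeR, adjusted p under 0.05), with a median log2 fold change of -0.51. In bulk tissue, fewer cells of a type and less RNA per cell cannot be told apart. Fibroblast genes had a median of 0.46, macrophage genes of 0.34 and endothelial genes of -0.14, with 0 of 10, 0 of 10 and 0 of 9 called. Of the smooth muscle and pericyte genes, 2 of 9 rose.

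Rpl3l fell in the overexpressing atria, and it was the only one of the 68 tested members that passed the test in either direction. None rose. The fit over all 13295 tested genes called 438 lower (3.29%) and 206 higher (1.55%) at a Benjamini-Hochberg adjusted p under 0.05, or 4.84% in either direction, and the members' 1 call is 1.47% of those tested. At an unadjusted p under 0.05 there were 6 members (8.82%), 5 higher and 1 lower, beside 19.2% of all tested genes. By DESeq2 and by limma-voom the count was also 0 higher and 1 lower. The remaining 20 members had too few counts to be tested.

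The Rpl3l gene lies on chromosome 17 from 24727820 to 24736143 on the plus strand of GRCm38 (mm10), with 10 exons in its principal transcript of the GENCODE M21 annotation. Its counts were 164, 136 and 113 in wild type and 91, 71, 51 and 104 in overexpression. Scaled, these were 19.6, 19.2 and 13.9 CPM against 10.1, 10.3, 8.87 and 12.1 CPM. Every overexpression library lay below every wild type library, although wild type replicate 3 came close to overexpression replicate 4. The mean was 17.6 ± 3.16 CPM (SD, n = 3) in wild type and 10.3 ± 1.33 CPM (SD, n = 4) in overexpression. By the fitted fold change, overexpression was 40.9% lower. The log2 fold change was -0.76 ± 0.17 (SE; edgeR quasi-likelihood test, adjusted p = 0.0389), with a 95% interval of -1.14 to -0.37.

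This call lay near the threshold. Leaving out wild type replicate 1 gave an edgeR adjusted p = 0.168, wild type replicate 2 gave 0.170, and overexpression replicates 2, 3 and 4 gave 0.0903, 0.0909 and 0.0512. It was 0.0635 with library totals alone, 0.0514 with totals that omit the 10 most abundant genes, and 0.275 with libraries scaled to the sarcomere genes. That last scaling sets Rpl3l against a list that was itself lower in overexpression, with 8 of 33 tested genes lower, 0 higher and a median log2 fold change of -0.35, and left Rpl3l at -0.31. It uses the summed counts of the list, of which Ttn and Myh6 hold the most, and shifts all genes together. The median of all tested genes moved from 0.02 to 0.48. The part of the cardiomyocyte transcripts as a whole in the decrease of Rpl3l was not tested.

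The 250 bases before the RefSeq start of Rpl3l are shown because it is the member that changed, and were searched for short motifs of cardiac transcription factors, among them the GATA factors that FOG2 binds. They lie at chr17:24727576-24727825 of GRCm38.p6, plus strand, read 5′ to 3′. Capitals mark matches, on either strand, to the GATA motif GATAA, the T-box site AGGTGT and the E-box CANNTG.
Rpl3l: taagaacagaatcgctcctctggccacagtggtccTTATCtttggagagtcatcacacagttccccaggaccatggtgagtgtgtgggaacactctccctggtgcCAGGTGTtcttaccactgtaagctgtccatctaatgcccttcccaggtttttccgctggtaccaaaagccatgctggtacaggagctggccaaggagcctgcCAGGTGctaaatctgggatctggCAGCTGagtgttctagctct
The GATA match (TTATC, the reverse strand) spans bases -215 to -211 from the start, and the T-box site spans -144 to -139, where it overlaps an E-box at -145 to -140. The other E-boxes span -43 to -38 and -20 to -15. Each motif is short and common: of 32851 RefSeq windows of the same length, 22.6% held GATAA, 11.8% AGGTGT and 66.2% CANNTG. Of the 67 members with a window, 17 (25.4%), 9 (13.4%) and 32 (47.8%) held them. A match describes letters and shows no binding.

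Rpl3 itself, the form used in most tissues, was read at a very low level. It lies on the minus strand of chromosome 15 from 80077791 to 80091868. Its counts were 16, 18 and 19 in wild type and 28, 11, 11 and 13 in overexpression. The groups overlapped, and the highest value was in overexpression replicate 1. Means were 2.26 ± 0.324 CPM (SD, n = 3) and 2.03 ± 0.740 CPM (SD, n = 4), with a log2 fold change of -0.14 ± 0.34 (edgeR, adjusted p = 0.857). The 95% interval of -0.90 to 0.62 takes in changes of the size seen for Rpl3l. Rpl3 counts cannot be read as its whole mRNA: 85.6% of the 50-base windows of its transcript also occur in another annotated gene, against 0% for Rpl3l, and reads that align to several places were not counted to genes.

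The share of Rpl3l in the counts of the pair was 91.1%, 88.3% and 85.6% in wild type and 76.5%, 86.6%, 82.3% and 88.9% in overexpression. Because most of the Rpl3 transcript is shared with other genes and Rpl3l is not, these are shares of counts and not of mRNA. The groups overlapped, at 88.3% ± 2.75 (SD, n = 3) and 83.6% ± 5.46 (SD, n = 4). The overexpression mean minus the wild type mean was -4.79 percentage points (exact permutation test, two-sided p = 0.286). The two-sided p of this test doubles the smaller one-sided p. Computed this way over 35 regroupings, it cannot fall under 0.0571 and so cannot reach 0.05. With a library left out, the difference was between -6.57 points, without overexpression replicate 4, and -2.43, without overexpression replicate 1. Exact binomial intervals at 95% ran from 67.8% to 83.8% in overexpression replicate 1 and from 86.0% to 94.8% in wild type replicate 1, and cover counting error only. A measure chosen after the values were seen sets Rpl3l against the summed counts of all other members in the same library. By it there were 3.89, 3.91 and 2.70 Rpl3l counts per 1000 counts of other members in wild type and 1.69, 1.75, 1.92 and 2.37 in overexpression. The groups did not overlap, and the mean was 44.7% lower in overexpression (exact permutation test, two-sided p = 0.0571, the smallest that this doubled p can take). This ratio does not depend on library scaling, but it does depend on the counts of the other members. All members together held 0.622%, 0.632%, 0.478% and 0.510% of gene counts in overexpression replicates 1 to 4. In wild type they held 0.497%, 0.455% and 0.490%. A higher denominator in replicates 1 and 2 therefore has a part in the difference.

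**Figure D1:**
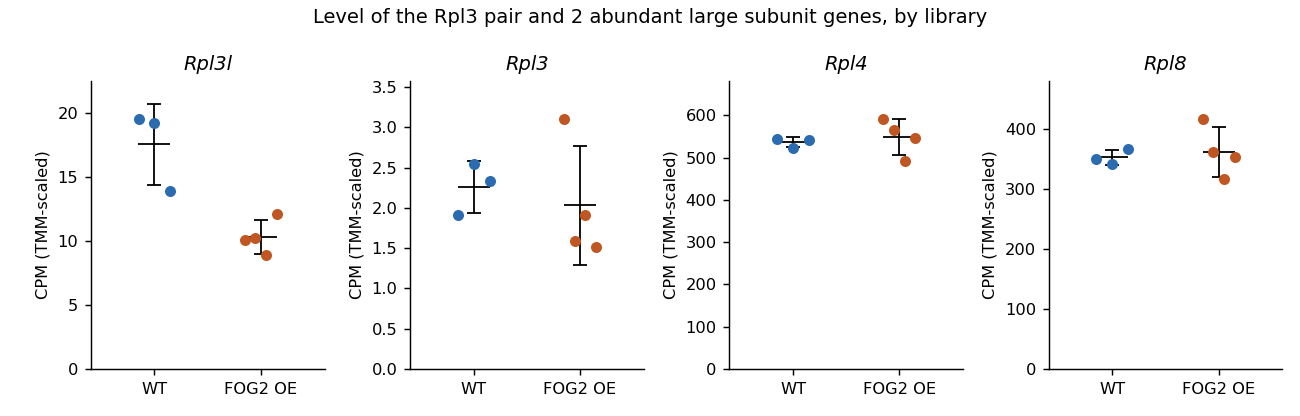
Level of Rpl3l, Rpl3 and the abundant large subunit genes Rpl4 and Rpl8 in each library, in TMM-scaled CPM on axes from 0. Points are libraries, the cross line and bars are the mean and SD of 3 wild type (blue) and 4 FOG2 overexpression (orange) libraries; Rpl3l separates the groups, while the other genes overlap.

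The most abundant standard subunits per transcript length had small fitted changes, and none passed the test. On the scale of mean CPM per kilobase over all 7 libraries, the stalk protein Rplp1 stood at 506, Rpl8 at 420.3, Rps14 at 417 and Rpl4 at 354. These levels are low estimates wherever a transcript shares sequence with other genes, as 38.1% of Rps14 windows do. Rpl4, which lines the exit tunnel, had 545, 522 and 543 CPM in wild type against 592, 564, 493 and 547 CPM in overexpression. The wild type values fell within the range of the overexpression values, and the log2 fold change was 0.03 ± 0.10, with a 95% interval of -0.20 to 0.27. Rpl8, a core protein near the catalytic centre, had 349.5, 341 and 366 CPM in wild type against 417, 361, 316 and 353 CPM in overexpression (0.04 ± 0.11, interval -0.22 to 0.29). Rps14, which sits at the platform of the small subunit, gave an interval of -0.25 to 0.21. For these 3 genes the intervals leave out a change as large as the -0.76 of Rpl3l.

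The starts of Rpl4, Rpl22, Rps9 and Rpl13a are shown with the pyrimidine runs that lie near them. They are among the most abundant members per length whose RefSeq window holds a run. Each line gives 50 bases before the annotated start and 25 after it, 5′ to 3′ on the gene's own strand of GRCm38.p6, with runs of 8 or more C or T in capitals. The regions are chr9:64173337-64173411 (plus), chr4:152325676-152325750 (plus), chr7:3703991-3704065 (plus) and chr7:45128721-45128795 (minus).
Rpl4: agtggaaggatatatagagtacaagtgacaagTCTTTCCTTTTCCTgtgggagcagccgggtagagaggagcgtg
Rpl22: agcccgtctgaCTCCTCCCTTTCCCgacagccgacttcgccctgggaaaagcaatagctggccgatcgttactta
Rps9: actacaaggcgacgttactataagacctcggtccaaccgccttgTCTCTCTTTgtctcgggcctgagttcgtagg
Rpl13a: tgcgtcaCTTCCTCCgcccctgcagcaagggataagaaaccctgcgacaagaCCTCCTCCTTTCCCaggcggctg
The marked runs of Rpl4 and Rpl22 lie before the annotated start, that of Rps9 crosses it, and Rpl13a has runs on both sides. A run near the start is therefore not shown to be the terminal motif. A run of 8 or more within 50 bases either side of the start occurred in 51 of 67 members with a RefSeq window (76.1%). The share among all 32851 windows was 35.7%. The ETS motif CCGGAAG, searched on both strands of the 250 bases before the start, occurred in 19 members (28.4%) and in 6.91% of all windows, and the MCAT motif CATTCC in 6 members (8.96%) and in 12.6%. The window of Rpl3l has no CCGGAAG match, and its 1 pyrimidine run of 9 bases begins 31 bases after the annotated start. The members were picked by name, and these shares describe them with no test.

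Across the tested members, 55 of 68 had a log2 fold change above 0 (80.9%), against 53.2% of all tested genes. The median was 0.14 (quartiles 0.04 and 0.32) against 0.02 over all genes. The large subunit had a median of 0.20 over 37 tested genes and the small subunit 0.13 over 23. These small values were not shared by all overexpression libraries. Taken per library as the median over members of the log2 ratio to the wild type mean (0.5 CPM added), they were 0.32, 0.28, -0.09 and 0.03 in overexpression replicates 1 to 4, and 0.01, -0.05 and 0.03 in wild type. Replicates 1 and 2 were above wild type and replicates 3 and 4 were not.

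**Figure D2:**
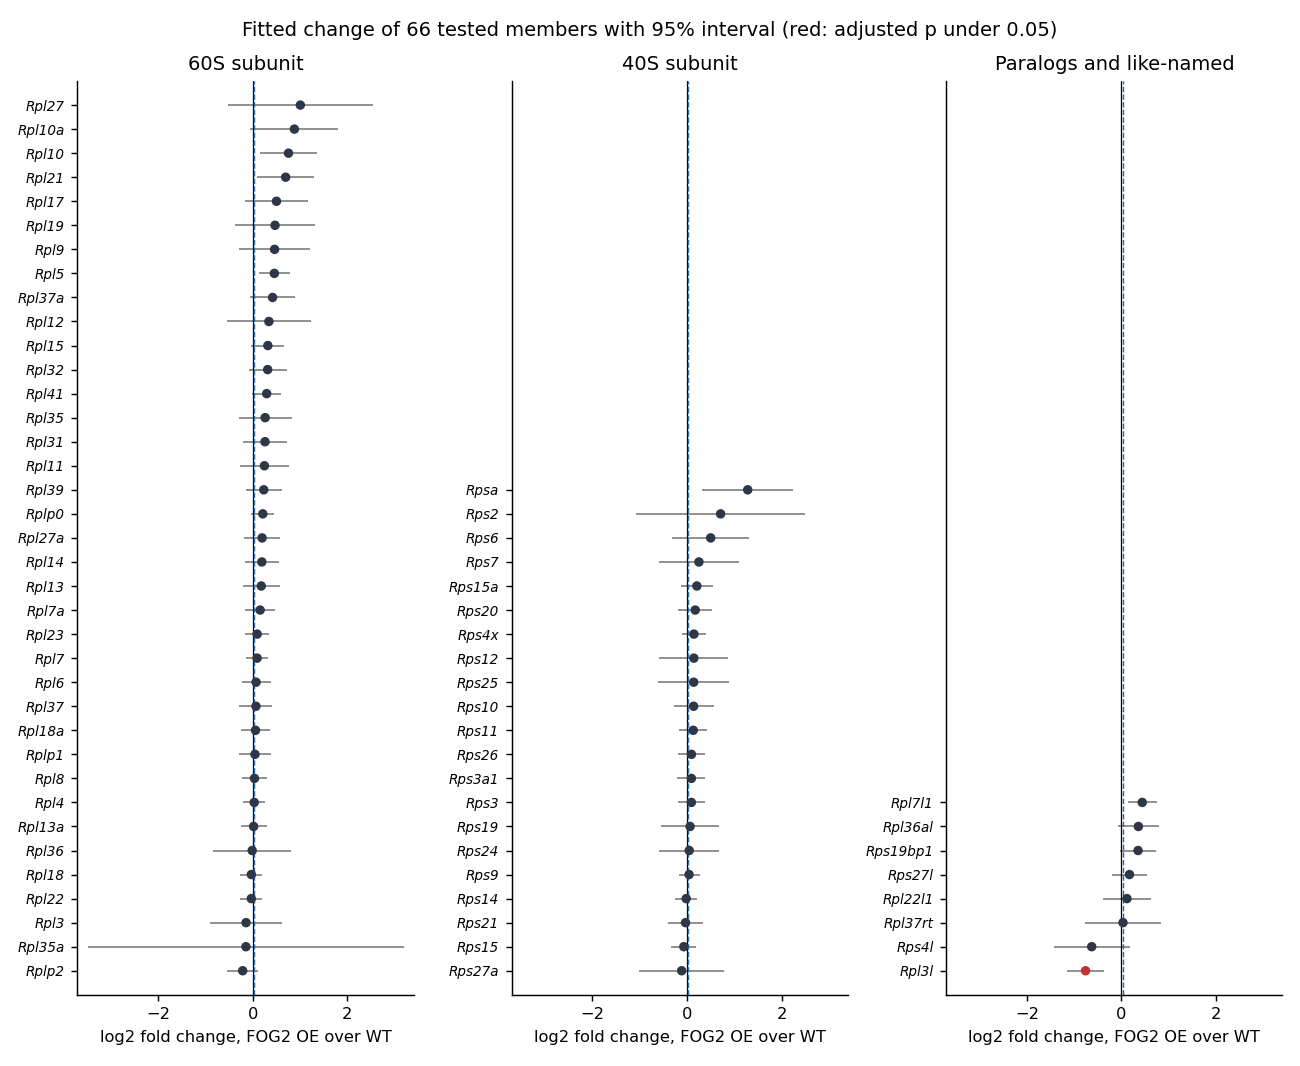
Fitted log2 fold change of 66 of the 68 tested members, FOG2 overexpression over wild type, with 95% intervals, by large subunit (60S), small subunit (40S) and paralogs or like-named genes. The solid line is 0, the dashed line the median of all tested genes (0.02), and the red point, Rpl3l, is the only member with an adjusted p under 0.05.

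The members together held 42354, 34948 and 42003 counts in wild type and 53805, 40727, 26597 and 43915 counts in overexpression. As a share of all gene counts this was 0.497%, 0.455% and 0.490% against 0.622%, 0.632%, 0.478% and 0.510%, or 0.481% ± 0.0222 (SD, n = 3) and 0.560% ± 0.0777 (SD, n = 4). Overexpression replicates 1 and 2 lay above all others, while replicate 3 lay within the wild type range. The share of reads that aligned to several places was also highest in those 2 libraries, at 43.2% and 43.4%, and was 37.1% and 39.6% in overexpression replicates 3 and 4. In wild type it was 40.8%, 38.5% and 41.3%. The part of this share in the level of the members was not tested.

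**Figure D3:**
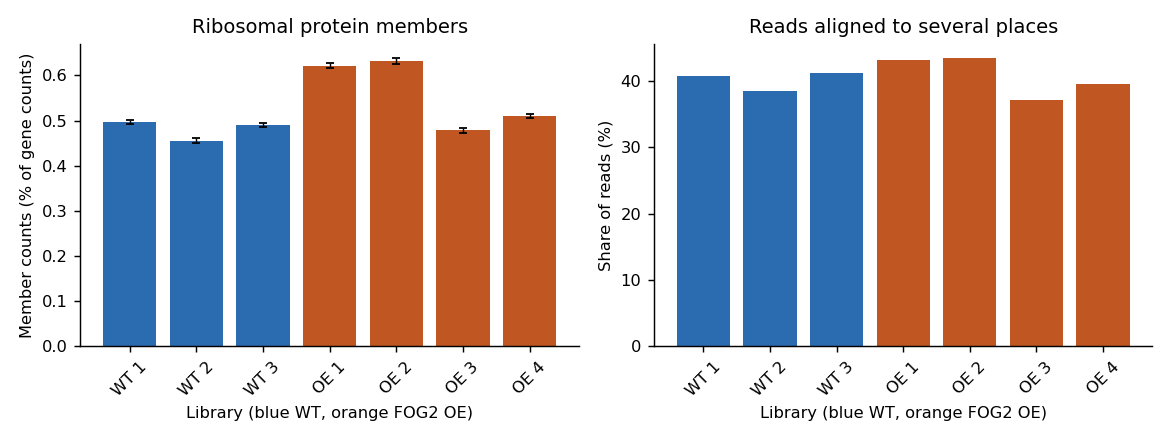
Left, counts of all 88 members as a percentage of gene counts in each library, with exact binomial 95% intervals that cover counting error only; right, the percentage of reads with several alignments. Both axes start at 0, and overexpression replicates 1 and 2 are highest in both panels.

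Scaling decides the count of members that are higher. With libraries scaled to the sarcomere genes, 20 of the 68 tested members rose (29.4%) and 0 fell, but 3388 of all 13295 genes (25.5%) rose as well, and the median of all genes moved from 0.02 to 0.48. Relative to that shift the members' median of 0.62 stood 0.14 above all genes, where it stood 0.12 above them with TMM. Under this scaling the 20 included Rplp0, Rpl5, Rpl10, Rpl21, Rps4x and Rpsa. With library totals alone the medians were 0.27 for members and 0.15 for all genes, with 0 members called.

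The stalk of the large subunit, which recruits translation factors, is made by Rplp0, Rplp1, Rplp2 and, at its base, Rpl12. None passed the test. Rplp0 had 251, 258 and 296 CPM in wild type against 332, 326, 280 and 308 CPM in overexpression, with a log2 fold change of 0.21 ± 0.11 (edgeR, adjusted p = 0.318). Overexpression replicate 3 lay within the wild type range and the other 3 above it. Rplp2 stood at the other side, with 45.4, 41.8 and 47.8 CPM in wild type against 46.6, 41.2, 29.4 and 37.9 CPM in overexpression (-0.21 ± 0.15, adjusted p = 0.480 in edgeR). Rplp1 (0.05 ± 0.15) and Rpl12 (0.34 ± 0.39) gave no difference beyond their spread, and Rpl12 averaged only 2.42 CPM in wild type.

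Rpl5 and Rpl11 enter the large subunit with the 5S ribosomal RNA and, when free, bind the p53 regulator Mdm2. Rpl5 had 17.3, 13.7 and 13.8 CPM in wild type against 23.8, 19.2, 20.4 and 18.7 CPM in overexpression. The groups did not overlap, and the log2 fold change of 0.46 ± 0.14 did not pass the test (edgeR, adjusted p = 0.118). Rpl11 averaged 5.73 ± 1.42 and 6.81 ± 0.896 CPM (0.25 ± 0.23, adjusted p = 0.599 in edgeR). Windows shared with other genes made up 93.8% of the Rpl5 transcript and 62.2% of that of Rpl11. The exit tunnel proteins, 6 of 8 tested, were called in 0 cases and had a median of 0.26. Proteins of the head of the small subunit, 9 of 14 tested, were also called in 0 cases and had a median of 0.14.

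In 7 tested members every overexpression library lay above every wild type library, which is 10.3% of the members, and this held for 8.99% of all tested genes. Beside Rpl5 these were Rps19bp1, Rpl7l1, Rpl21, Rpl10, Rpl10a and Rpsa, and 0 of the 7 passed the test. In the other direction the groups were apart for Rpl3l alone, against 10.8% of all genes. Rpsa, a small subunit protein also known as the laminin receptor, had the highest log2 fold change of all members. Its counts were 23, 15 and 17 in wild type and 34, 68, 36 and 26 in overexpression, or 2.32 ± 0.368 against 5.72 ± 3.06 CPM (1.28 ± 0.42; edgeR, adjusted p = 0.137). Overexpression replicates 2 and 3 were high and replicate 4 was close to wild type. Rpl10, which joins late in the assembly of the large subunit, had 23, 23 and 18 counts in wild type and 51, 34, 21 and 36 in overexpression (0.76 ± 0.26, adjusted p = 0.157 in edgeR). Rpl21 had an estimate of 0.70 ± 0.27 and Rpl10a of 0.88 ± 0.41, both from under 40 counts in any library. Rpl10a had 10, 3 and 7 counts in wild type and 17, 9, 7 and 15 in overexpression. It passed the count filter through the overexpression libraries, so its place among the 7 is not independent of the filter.

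Paralogs other than Rpl3l did not pass the test. Rpl7l1, a relative of Rpl7 that acts in ribosome assembly, had 39.7, 34.3 and 38.8 CPM in wild type against 61.8, 48.8, 50.8 and 42.6 CPM in overexpression (0.44 ± 0.13; edgeR, adjusted p = 0.109). Its partner Rpl7 stood at 158 ± 6.58 and 168 ± 17.1 CPM (0.09 ± 0.10). Rpl22l1 and Rpl22, which can stand in for each other in the large subunit, stood at 0.12 ± 0.23 and -0.03 ± 0.10. Per transcript length, Rpl22 was read at 304 CPM per kilobase and Rpl22l1 at 57.8. Windows shared with other genes made up 24.5% of the Rpl22 transcript and 65.6% of that of Rpl22l1, so these levels do not give their mRNA ratio. Rps27l, known as a p53 target, was at 0.17 ± 0.17, while its partner Rps27, with 98.6% of windows shared, had at most 12 counts and was not tested. Rpl36al was at 0.36 ± 0.19 and its partner Rpl36a was not tested. Rps4l, annotated as a transcribed processed pseudogene, had 26, 19 and 20 counts in wild type and 25, 7, 9 and 14 in overexpression. Replicate 1 lay among the wild type values and the other 3 below them (-0.63 ± 0.35; edgeR, adjusted p = 0.376), and Rps4x, its partner, was at 0.14 ± 0.11. Rpl39l, whose main expression is in the testis, had at most 2 counts per library, against 86.99 ± 8.39 CPM for Rpl39 in wild type. Rpl10l, another testis form, had 0 counts in every library, which allows up to 3 counts, or 0.333 to 0.522 CPM.

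Members with over 75% of their transcript windows shared with other genes had the lowest median level, while some with 50% to 75% shared were abundant, such as Rplp1. Over the 88 members, a median of 58.7% of 50-base windows occurred in another gene, against 0% for the 12819 tested genes with annotation. More than 25% was shared in 73 members (83.0%) and in 9.67% of those genes. The 15 members with under 25% shared had a median level of 63.6 CPM per kilobase, the 18 with 25% to 50% had 90.0, the 26 with 50% to 75% had 17.8 and the 29 above 75% had 3.21. Spearman's rho of level and shared percentage was -0.43 over the 88 members, which share libraries and depth. The lowest tested standard subunits per length were Rpl27, Rpl3, Rpl10a, Rps27a and Rpl12, all at 2.23 CPM per kilobase or less. Proteins of which each ribosome holds 1 copy were read at levels as far apart as 0 for Rpl26 and 420.3 CPM per kilobase for Rpl8, and these counts do not rank the members by mRNA. Comparing the groups assumes the same countable stretch of a gene in every library, which was not tested.

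**Figure D4:**
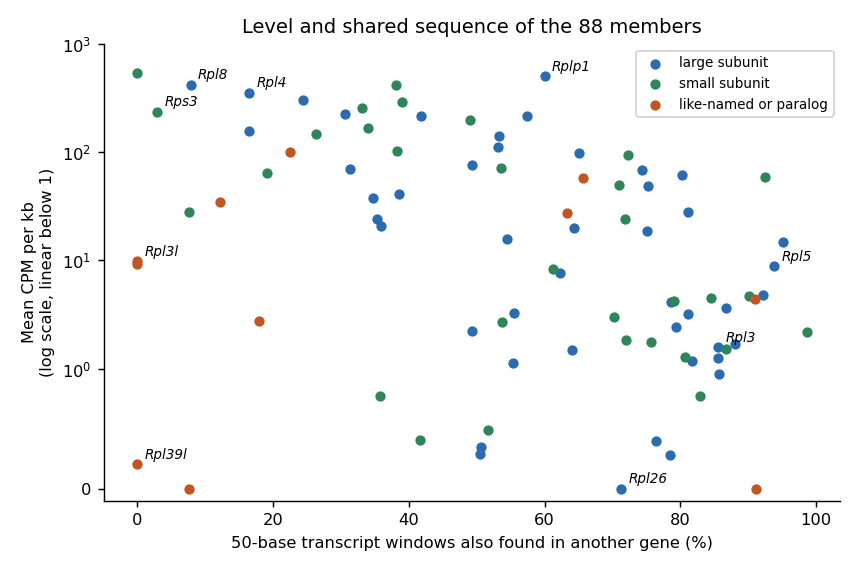
Mean level of each of the 88 members over 7 libraries, in CPM per kilobase of transcript (log axis, linear below 1), against the percentage of its 50-base transcript windows also found in another gene. Points are genes coloured by class; members above 75% shared lie mostly below 10 CPM per kilobase, and Rpl3l shares 0%.

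The 20 members that could not be tested had at most 16 counts in any library, and 16 of them shared over 50% of windows. Rpl26, Rpl10l and Rps27rt were at 0 throughout. Among the standard subunits with a mean of at least 20 CPM, all 38 of which were tested, 0 passed and the median log2 fold change was 0.09. Below that level 22 of 39 were tested and their median was 0.40. A low gene passes the filter more easily where 1 group is high, so this second value describes the tested genes alone. The standard subunits that share under 50% of windows had a median of 0.09 over 24 tested of 26.

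A few members split the libraries within a group. Rpl35a, mutated in some cases of Diamond-Blackfan anaemia, had 185, 15 and 7 counts in wild type and 236, 11, 4 and 9 in overexpression. It was high in replicate 1 of each group and low in the other 5 libraries. Rps2, at the mRNA entry site, had 6, 8 and 59 counts in wild type and 16, 41, 32 and 59 in overexpression. Wild type replicates 1 and 2 and overexpression replicate 1 were low. Such splits leave the fitted changes wide, at -0.14 ± 1.43 for Rpl35a and 0.71 ± 0.77 for Rps2. Of the 67 tested members with a mean of at least 1 CPM, 4 differed 3-fold or more between their highest and lowest library, Rpl35a, Rps2 and Rpsa among them (5.97%, on CPM with 0.5 added), beside 9.75% of 13255 genes. The labels give no sex, litter or batch to set beside them, and what these libraries share was not tested.

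**Figure D5:**
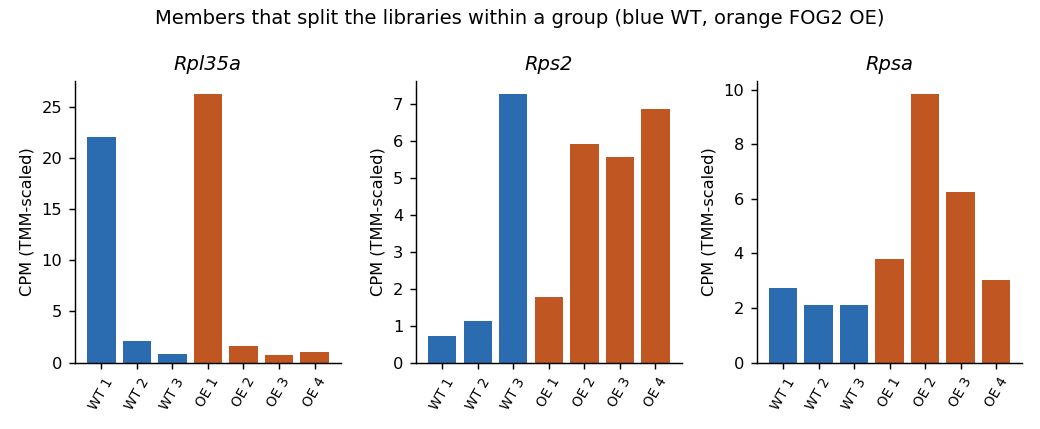
Level of Rpl35a, Rps2 and Rpsa in each library, as bars of TMM-scaled CPM on axes from 0, with 3 wild type (blue) and 4 FOG2 overexpression (orange) libraries. Rpl35a is high in replicate 1 of each group, and Rps2 splits both groups.

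Genes mutated in Diamond-Blackfan anaemia, an inherited failure of red cell production, were called in 0 of 9 tested cases of 12 and had a median of 0.14. The nearest to the threshold after Rpl5 was Rpl15, at 34.0 ± 5.54 and 42.4 ± 6.74 CPM (0.32 ± 0.15; edgeR, adjusted p = 0.302). Rps6, the small subunit protein phosphorylated by S6 kinases, had 26, 26 and 23 counts in wild type and 69, 21, 23 and 28 in overexpression. Replicate 1 alone lay above wild type by a wide margin (0.50 ± 0.36; edgeR, adjusted p = 0.492). The ribosomal protein made by Gnb2l1 (Rack1), which docks signalling proteins on the small subunit, was abundant at 547 ± 24.3 and 620 ± 85.4 CPM (0.18 ± 0.13, adjusted p = 0.481 in edgeR). Fau, which encodes a ribosomal protein fused to a ubiquitin-like protein, averaged 2.74 ± 0.351 and 2.50 ± 0.613 CPM (-0.14 ± 0.29; edgeR, adjusted p = 0.842).

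Other genes of the translation machinery were counted from lists chosen by gene name. None of the 10 elongation factors passed the test. Eef1a2, the muscle and nerve form of the factor that delivers aminoacyl-tRNA, averaged 478 ± 65.3 CPM in wild type against 384 ± 89.4 CPM in overexpression (-0.32 ± 0.19; edgeR, adjusted p = 0.405). Eef2k, the kinase that inhibits elongation, averaged 46.5 ± 1.35 and 38.9 ± 1.86 CPM, with groups that did not overlap (-0.26 ± 0.09; edgeR, adjusted p = 0.151). Of 35 tested initiation factors 0 passed (median 0.07). Of 18 tested mRNAs of the terminal oligopyrimidine class from outside the members, 0 passed (median 0.04). This list is not separate from the others. It repeats elongation and initiation factors, among them Eef1a1, Eef2, Eif4b and Pabpc1, and also holds Gnb2l1 and Fau, described above. The 47 tested ribosome assembly factors had 0 calls, a median of 0.14 and 38 values above 0. This share of 80.9% was equal to that of the members, against 53.2% of all tested genes. Some assembly factors, such as Nop56, Nop58, Ddx21 and Grwd1, were highest in overexpression replicate 1, while others, such as Ncl and Ddx51, were not. The part of that library in the share was not tested. At an unadjusted p under 0.05 in edgeR there were 0 higher and 1 lower among the 10 elongation factors, and 1 and 2 among the 35 initiation factors. There were 1 and 0 among the 47 assembly factors, and 0 and 0 among the 18 oligopyrimidine mRNAs. Of all 13295 tested genes, 1215 were higher and 1336 lower at this threshold, 19.2% in either direction.

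Calls in the wider pathway came from single genes. Polr1e, a subunit of RNA polymerase I, which transcribes ribosomal RNA, rose from 24.4 ± 3.99 to 56.7 ± 13.8 CPM (1.22 ± 0.21; edgeR, adjusted p = 0.0115), 1 of 15 tested genes of that list, whose median was -0.02. Its adjusted p in edgeR was 0.0646 and 0.0690 without wild type replicates 1 and 2. Polr1a, the largest subunit of the same enzyme, averaged 77.6 and 65.2 CPM (-0.25 ± 0.10, adjusted p = 0.224 in edgeR). In the list of growth signalling to ribosomes 1 of 22 genes fell and 0 rose. This was Eif4ebp1, which binds the cap-binding factor eIF4E and represses translation until mTORC1 phosphorylates it, from 68.8 ± 12.2 to 42.6 ± 3.07 CPM (-0.69 ± 0.13; edgeR, adjusted p = 0.0161). The adjusted p for Eif4ebp1 rose to 0.0613 without wild type replicate 2, to 0.0506 without overexpression replicate 3 and to 0.290 with sarcomere scaling in edgeR. Myc, a transcription factor that drives ribosome genes, averaged 2.32 ± 0.657 and 3.91 ± 2.08 CPM (0.76 ± 0.44; edgeR, adjusted p = 0.389).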

How the data were processed

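Whole-number counts per gene were deposited for 7 libraries of mouse left atria, 4 labelled FOG2 overexpression and 3 wild type. The authors used the mm10 build with STAR, DESeq2 and HTSeq 0.6.0, whose roles are not stated, per the submitters' processing notes. The strand setting of counting is not given in the sources used here, so reads of overlapping antisense genes cannot be told apart. Labels and protocol differ on whether polyA RNA was selected or ribosomal RNA removed. Rows naming no gene stayed out of library sizes and tests: reads with several alignments (37.1% to 43.4%), reads in no feature (23.4% to 30.5%) and ambiguous reads (0.101% to 0.254%). All columns mapped to samples.

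The filter was filterByExpr with its group argument (at least 10 counts, total at least 15) and the scaling TMM. The test was the two-sided quasi-likelihood F test of edgeR 4.0.16 (R 4.3.3), robust and with no covariate, with Benjamini-Hochberg adjustment over all 13295 tested genes and a threshold of 0.05. Standard errors and intervals come from that fit. Ratios within a library were compared by an exact permutation test over 35 regroupings (SciPy 1.17.1). Positions, lengths and shared 50-base windows came from GENCODE M21 transcripts, matched by symbol for 95.7% of rows, and promoter sequences from RefSeq (GRCm38.p6), matched for 67 members. On simulated counts for 13295 genes 3 of 116 calls were false, and the test found 98.5% of changes of 4-fold, 67.2% at 2-fold and 4.48% at 1.5-fold. The simulation gave all genes the same dispersion (biological coefficient of variation 0.188) and set no library apart. In the data, spread differed between genes and overexpression replicate 1 stood apart, so these rates need not hold there.

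The members and lists were chosen with earlier results of these data known. The genes named are Rpl3l, Rpl3 and other paralog pairs; called members; the 5 members with the largest change in each direction at a mean of at least 1 CPM; the 5 standard subunits with the highest and the 5 with the lowest level per length; stalk and 5S proteins; Rps6 and Rpsa; and up to 4 genes with the smallest p of each list. A few picks are left out of the text and 2 out of a plot, but every count includes them. Rps19bp1, Rpl26, Rps27rt, Rps9 and Rpl13a were named after their values were seen. Alternatives were other scalings, filters and tests (DESeq2 1.42.0, limma-voom from limma 3.58.1), a length and GC offset, the replicate block and each library left out.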

Additional observations from a re-analysis of the deposited data

Results flagged for a closer look

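Of 70 genes looked at in the 4 overexpression libraries, 2 had a library far from the other 3, where chance gives about 1 in 20. Rpl35a stood at 26.2 CPM in overexpression replicate 1, against 1.59, 0.696 and 1.05 CPM in replicates 2 to 4. Rpl37, a large subunit protein, stood at 42.97 CPM in overexpression replicate 3, against 64.8, 64.8 and 63.5 CPM in the others. In wild type, Rpl35a was again high in replicate 1 (22.1 CPM, against 2.12 and 0.862 CPM), while Rpl37 had 61.9, 49.996 and 57.1 CPM.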

How the results depend on the processing

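Rpl3l had a log2 fold change below 0 in every setting run. It was -0.64 with library totals only, -0.31 with sarcomere scaling, -0.70 with totals without the 10 most abundant genes and -0.84 with the replicate number as a block (edgeR, adjusted p = 0.0635, 0.275, 0.0514 and 0.0570), so 0 members were called lower in those settings, as among standard subunits only. Left out in turn, the libraries gave -0.90 to -0.67 (adjusted p = 0.0295 to 0.170, called in 2 of 7) and 0 or 1 member called lower. DESeq2, limma-voom, RLE and upper quartile scaling, either filter, the GC offset and the non-robust fit kept the call (adjusted p = 0.00896 to 0.0494). Sarcomere scaling gave 20 members called higher, a members' median of 0.62 and Rpl3 at 0.33. Left out in turn, the members' median ran from 0.08 to 0.23. Genes called in all numbered 644, but 3567 with sarcomere scaling, 1141 with DESeq2, 382 with the block and 256 to 1151 with a library left out; 32.0% of calls were higher, against 60.2% with library totals only, 48.7% without the top 10 and 94.98% with sarcomere scaling. In the main fit same-numbered libraries were not treated as pairs, and the labels do not say that they are. Their deviations from group means correlated at 0.0789, 0.0136 and 0.0720, which cannot decide whether animals were paired. Of 549 results of 29 single members other than Rpl3l and Rpl3, 509 kept their direction and side of the threshold, 10 passed it with sarcomere scaling only, and 30 uncalled values changed sign. Of 208 results of 11 other genes named, 195 kept both, 3 passed the threshold under sarcomere scaling only, 5 no longer passed it (2 for Polr1e, 3 for Eif4ebp1) and 5 uncalled values changed sign. The 20 untested members had at most 16 counts in any library, and 16 of them shared over 50% of windows, where the median of all 88 members was 58.7%. The part of depth was not tested.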
